A study of Mus musculus with 6 samples.

Results

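The circadian clock genes examined here are the 10 genes *Clock*, *Arntl*, *Npas2*, *Per1*, *Per2*, *Per3*, *Cry1*, *Cry2*, *Dbp* and *Ciart*, taken by symbol from the 25239 genes of the counts, and all 10 were present and passed the filter on low counts. They were followed in the hippocampus of male C57BL/6 mice aged 6 to 8 weeks, with 1 RNA sequencing library per mouse. The 3 WT (Ube3am+/p+) mice carry both parental copies of *Ube3a*, and the 3 Ube3am-/p+ mice lack the maternal copy and keep the paternal one, which is silent in most neurons, as a constitutive model of Angelman syndrome. The libraries were made from hippocampal tissue, in which fewer cells of a type and less RNA per cell cannot be told apart, and the hour of collection is not given in the sources used here.

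The clock is a feedback loop of transcription that runs in nearly every cell. CLOCK, or its forebrain relative NPAS2, pairs with ARNTL (BMAL1) and activates genes through E-boxes, among them the Period (*Per*) and Cryptochrome (*Cry*) genes, *Ciart* and *Dbp*. PER and CRY proteins then return to the nucleus and repress CLOCK and ARNTL, CIART (CHRONO) acts as a further repressor, and DBP carries the rhythm to genes with D-boxes. *Arntl* is itself repressed by NR1D1 and NR1D2 (REV-ERB) and activated by ROR receptors through ROR elements, so that its RNA runs opposite in phase to *Dbp*, *Per* and *Nr1d1*. UBE3A has been described as a ligase that acts on the ARNTL protein, a level that RNA counts do not measure. The question put to the counts was whether the clock genes differed between the genotypes and whether single libraries stood at another phase.

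Promoter windows from RefSeq (GRCm38.p6, 250 bases before to 50 after an annotated start) were held for 9 of the 10 genes, in 13 windows. Windows of *Per3*, *Ciart*, *Per1* and *Cry1* are shown, and those of *Arntl* and *Cry2*, which also hold a match, are not. The motifs searched on both strands were the E-box CACGTG, its variant CACGTT, the D-box (TTATGTAA, TTATGCAA or TTACGTAA), the core of the ROR element (TAGGTCA or TGGGTCA) and the cAMP response element (CRE, TGACGTCA). Matches stand in capitals, 5′ to 3′ on the strand of the gene.
Per3 (chr4:151044616-151044915, minus strand): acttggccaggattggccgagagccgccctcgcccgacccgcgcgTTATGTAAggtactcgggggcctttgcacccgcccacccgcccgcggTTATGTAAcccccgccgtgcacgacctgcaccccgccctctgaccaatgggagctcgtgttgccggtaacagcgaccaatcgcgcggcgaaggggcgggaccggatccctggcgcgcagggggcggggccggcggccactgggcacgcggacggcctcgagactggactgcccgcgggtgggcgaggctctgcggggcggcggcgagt
Ciart (chr3:95882179-95882478, minus strand): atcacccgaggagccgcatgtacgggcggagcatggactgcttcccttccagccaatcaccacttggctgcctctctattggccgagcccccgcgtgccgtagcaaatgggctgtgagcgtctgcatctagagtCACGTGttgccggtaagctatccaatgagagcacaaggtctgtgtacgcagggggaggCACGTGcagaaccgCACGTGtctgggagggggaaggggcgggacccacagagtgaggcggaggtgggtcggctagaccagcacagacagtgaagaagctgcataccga
Per1 (chr11:69098699-69098998, plus strand): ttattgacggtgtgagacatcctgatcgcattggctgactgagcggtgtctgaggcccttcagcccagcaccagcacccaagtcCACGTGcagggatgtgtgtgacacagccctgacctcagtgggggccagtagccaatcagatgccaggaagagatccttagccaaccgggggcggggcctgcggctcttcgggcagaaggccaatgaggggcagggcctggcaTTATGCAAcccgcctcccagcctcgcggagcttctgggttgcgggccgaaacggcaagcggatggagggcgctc
Cry1 (chr10:85185005-85185304, minus strand): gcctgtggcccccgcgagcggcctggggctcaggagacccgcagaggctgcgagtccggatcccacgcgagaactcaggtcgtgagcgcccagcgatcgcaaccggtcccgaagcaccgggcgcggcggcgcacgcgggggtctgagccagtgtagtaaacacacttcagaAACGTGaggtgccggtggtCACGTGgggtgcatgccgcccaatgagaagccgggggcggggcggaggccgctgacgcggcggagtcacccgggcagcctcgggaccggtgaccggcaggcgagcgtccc

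The *Per3* window holds 2 D-boxes, which start at -205 and -158 relative to the annotated start at 0, and no E-box. The *Ciart* window holds 3 E-boxes, at -116, -58 and -44. The first of 2 *Per1* windows, the one shown, holds an E-box at -166 and a D-box at -24, and the other holds no match. The *Cry1* window holds an E-box at -60 and the variant at -79, read as AACGTG on this strand. In all, an E-box was matched in windows of 3 members (*Per1*, *Cry1* and *Ciart*), its variant in 2 (*Cry1* and *Cry2*), a D-box in 2 (*Per1* and *Per3*), a ROR core in 1 (*Arntl*) and the CRE in 0. Of all 32851 promoter windows of this length, 7.15% hold the E-box, 4.69% its variant, 1.78% a D-box, 6.45% a ROR core and 1.79% the CRE. Counted by gene, the shares are 8.09%, 5.44%, 2.10%, 7.35% and 2.03% of 27025 genes. A match is a description of the letters and not a bound site.

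The libraries held 7293272 to 11314409 counts on genes. *Ube3a*, the targeted gene, was at 104, 141 and 151 counts per 1000000 counts on genes (CPM) in WT mice 1, 2 and 3 and at 96.8, 82.9 and 80.6 CPM in Ube3am-/p+ mice 1, 2 and 3, a log2 fold change of -0.58 without overlap (edgeR adjusted p = 0.0363), and of -0.19 (edgeR adjusted p = 0.255) after the correction for GC described next. The libraries differed along the GC content of the transcripts. Across 14201 genes, Spearman's rho between GC content and a library's deviation from the mean was 0.0455, -0.506 and -0.571 in WT mice 1, 2 and 3, against 0.0588, 0.526 and 0.528 in Ube3am-/p+ mice 1, 2 and 3. In the mice numbered 2 and 3 the gradient and the genotype cannot be told apart, and fold changes are given also after a correction of every library for GC content and transcript length. Of the 10 hippocampal neuron markers 10 were tested and 0 were differentially expressed (edgeR; 3 at an unadjusted p below 0.05, 2 of them higher). The CA1 marker *Wfs1* was at 219, 213 and 194 CPM in WT mice 1, 2 and 3 and at 170.2, 135 and 183 CPM in Ube3am-/p+ mice 1, 2 and 3, and was called as lower after the correction (-0.52, edgeR adjusted p = 0.0494). The oligodendrocyte marker *Mobp* was likewise called as lower there (-0.32, edgeR adjusted p = 0.0466). Each was the 1 gene of its list called in that fit, of 10 hippocampal neuron and 6 oligodendrocyte markers, beside 0.204% of all genes called as lower. The median log2 fold changes of the lists there were 0.02 and -0.06. The part of these cell types in the clock values was not tested. Choroid plexus markers varied from 99.7 to 2185 CPM in summed level within WT mice alone, and from 106 to 2270 CPM in Ube3am-/p+ mice.

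Scaled to exon length, the clock genes spanned a wide range of levels, and the order was nearly the same in every mouse. The highest level was that of *Cry2*, at 23.4 ± 2.01 CPM per kb (SD, n = 6), followed by *Dbp* at 21.2 ± 2.91 and *Per1* at 16.05 ± 1.19 CPM per kb. *Cry2* and *Dbp* overlapped, with *Cry2* the higher of the pair in 5 of 6 mice. *Per1* stood below every *Dbp* value and above every *Per2* value, and *Per2*, at 9.11 ± 0.545 CPM per kb, stood above every *Per3* value. *Per3*, *Clock*, *Arntl* and *Npas2* followed at 6.43 ± 1.17, 5.91 ± 1.12, 5.13 ± 0.362 and 4.51 ± 0.502 CPM per kb, each overlapping the next. *Ciart* and *Cry1* were the lowest, at 3.79 ± 0.672 and 3.63 ± 0.597 CPM per kb, and overlapped each other. On this scaling the first 4 places were held by *Cry2*, *Dbp*, *Per1* and *Per2* in all 6 mice, and WT mouse 1 was the one in which *Dbp* exceeded *Cry2*. The length used is that of all annotated exons of a gene together, 9608 bp for *Per3* and 5856 bp for *Per2*. Their longest transcripts have 5999 and 5833 bp. The order of genes, among them *Per2* and *Per3*, depends on which length is used, and levels per kb of transcript are not given.

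**Figure D1:**
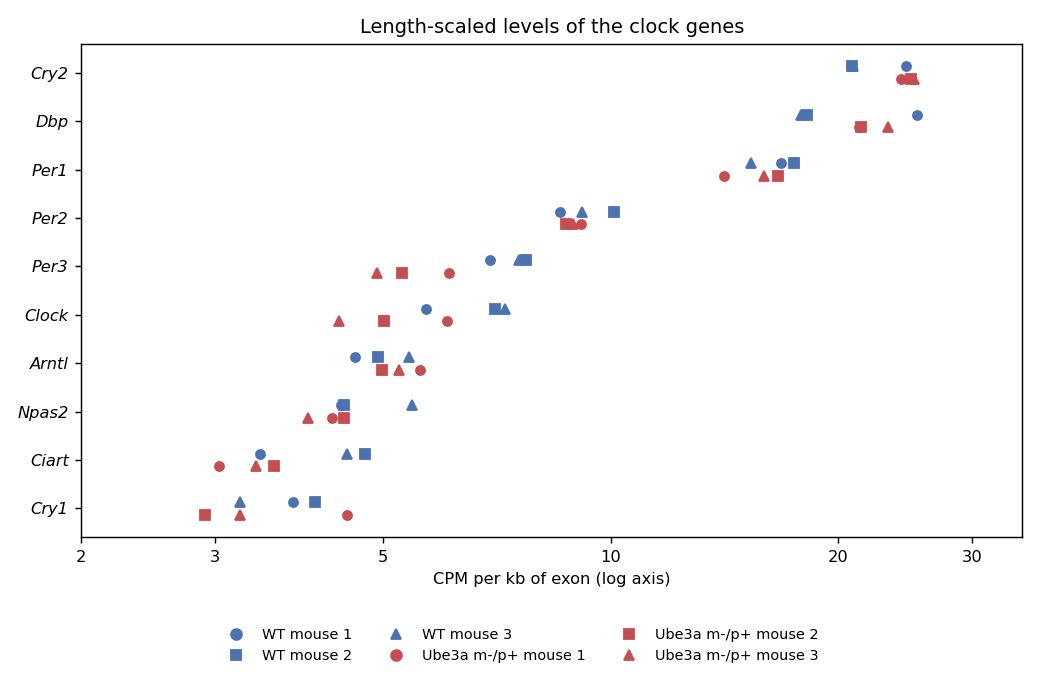
CPM per kb of exon (log axis) of each clock gene, 1 symbol per mouse, with WT mice in blue above and Ube3am-/p+ mice in red below. *Cry2* and *Dbp* lie highest and *Cry1* and *Ciart* at the bottom, and the *Per3* symbols of the genotypes do not overlap.

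Between the genotypes, 1 of the 10 clock genes was differentially expressed, *Per3*, which was lower in Ube3am-/p+ mice. A gene was called at a Benjamini-Hochberg adjusted p below 0.05 in edgeR's quasi-likelihood test over 14445 genes together with a fold change above 1.2, a rule that called 2.01% of all genes tested (0.99% in the lower direction). At an unadjusted p below 0.05 there were 2 clock genes, *Per3* and *Clock*, both lower, against 24.6% of all genes (12.2% higher, 12.4% lower). WT and Ube3am-/p+ mice had separate ranges of CPM in 1 of the 10, *Per3*, against 25% of all genes (14.2% lower, 10.8% higher). The log2 fold changes of the 10 genes ran from -0.43 to 0.18 with a median of -0.06, beside a median of 0.00 over all genes tested. The count of 1 rested on several libraries. It was 4 without WT mouse 1 (*Clock*, *Per3*, *Cry2* and *Dbp*), 2 without Ube3am-/p+ mouse 1 (*Clock* and *Per3*), and 0 without WT mouse 2, WT mouse 3, Ube3am-/p+ mouse 2 or Ube3am-/p+ mouse 3 (edgeR; 2, 2, 2 and 1 clock genes at an unadjusted p below 0.05). Over all genes, 2582 of 14646 were called without WT mouse 1 and 1816 of 14536 without Ube3am-/p+ mouse 1. The fits without WT mouse 2, WT mouse 3, Ube3am-/p+ mouse 2 or Ube3am-/p+ mouse 3 called 0, 0, 0 and 2 of all genes. At an unadjusted p below 0.05 (edgeR) these 4 fits held 2075, 2159, 2128 and 2429 genes.

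**Figure D2:**
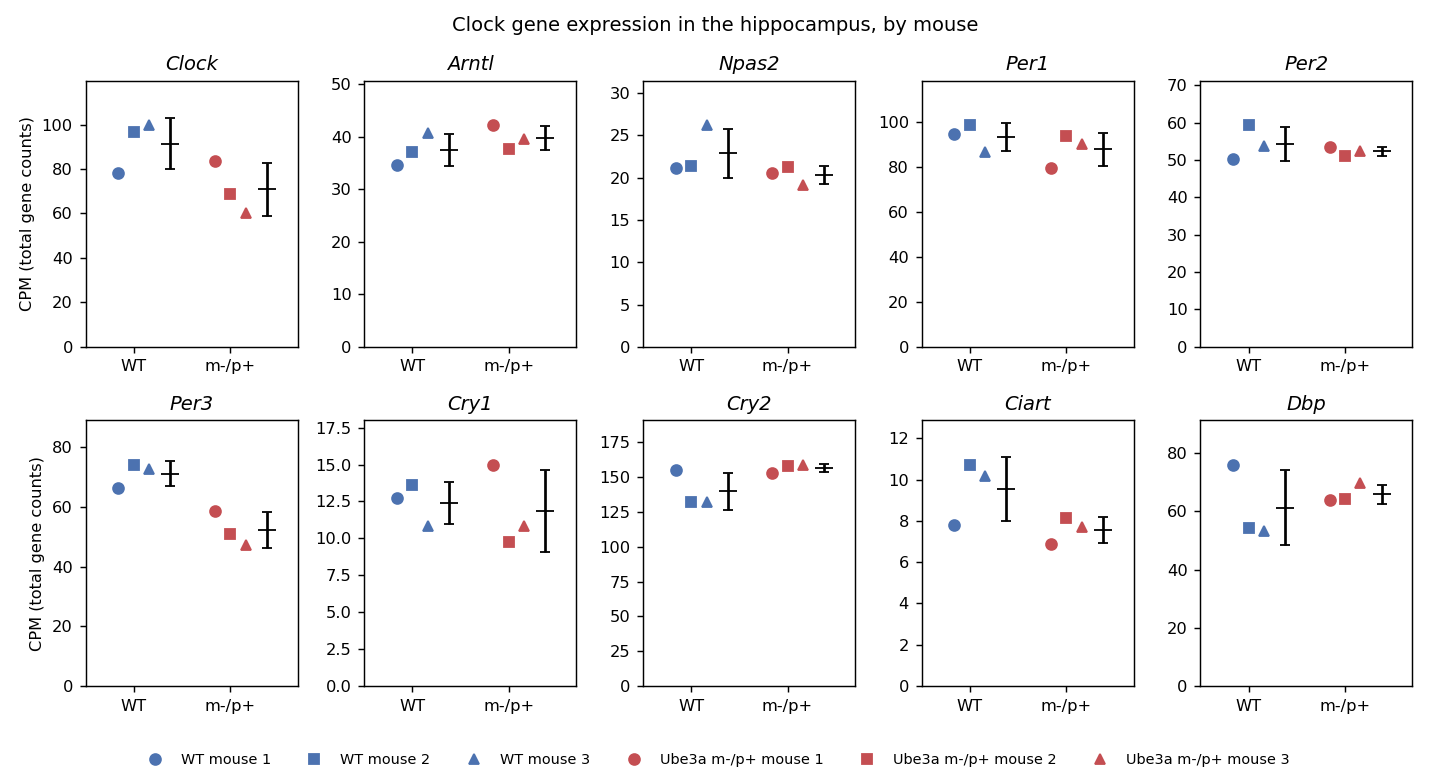
CPM on total gene counts of the 10 clock genes (linear axes from 0), with 1 symbol per mouse and the mean ± SD (n = 3) in black beside each genotype. The *Per3* values of Ube3am-/p+ mice (47.2 to 58.8 CPM) all lie below those of WT mice (66.6 to 74.2 CPM), and in the other 9 genes the genotypes overlap.

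*Per3* encodes the Period protein whose loss leaves behavioural rhythms of mice largely in place. It lies on chromosome 4 of GRCm38 (151003652 to 151044665, minus strand, GENCODE M21), and no annotated exon of another gene overlaps its exons. It stood at 66.6, 74.2 and 72.8 CPM in WT mice 1, 2 and 3 and at 58.8, 51.0 and 47.2 CPM in Ube3am-/p+ mice 1, 2 and 3. Every Ube3am-/p+ mouse was below every WT mouse, and the mice numbered 1 were the closest across genotypes. The means were 71.2 ± 4.09 CPM (SD, n = 3) and 52.4 ± 5.92 CPM (SD, n = 3), with a log2 fold change of -0.43 ± 0.10 (SE, 95% interval -0.64 to -0.21, edgeR adjusted p = 0.0426). An exact permutation test over the mice gave a two-sided p of 0.1, the smallest that 3 mice against 3 allow.

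The *Per3* difference was not smaller after the correction for GC content and length, at -0.46 ± 0.09 (SE, edgeR adjusted p = 0.0216), a fit that called 0.542% of all genes and 0.204% as lower. Its longest transcript has a GC content of 52.4%. In the mice numbered 1, whose libraries lay closest together on the GC gradient, the log2 ratio of *Per3* was -0.18, and in the mice numbered 2 and 3 it was -0.58. Over 15 alternative settings the log2 fold change kept its direction in 15 and ran from -0.51 to -0.36, and the call held in 9 of them (adjusted p from 0.00644 to 0.27, edgeR and DESeq2). It was lost without WT mouse 2 (edgeR adjusted p = 0.246), WT mouse 3 (0.202), Ube3am-/p+ mouse 2 (0.27) or Ube3am-/p+ mouse 3 (0.169), under the replicate block (0.216), and under that block and the correction together (0.144). Of all genes, those fits called 0, 0, 0 and 2 without these mice, and 0 and 1 under the block without and with the correction. At an unadjusted p below 0.05 (edgeR) they held 2075, 2159, 2128 and 2429 genes, and 2422 and 1591 under the block.

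*Per1* and *Per2*, the Period genes on which rhythms depend most, did not pass the threshold. *Per1*, which also responds quickly to neuronal activity, was at 94.5, 98.3 and 86.4 CPM in WT mice 1, 2 and 3 and at 79.6, 93.6 and 89.8 CPM in Ube3am-/p+ mice 1, 2 and 3. The genotypes overlapped, and Ube3am-/p+ mouse 1 was the lowest of the 6. Its log2 fold change was -0.07 (95% interval -0.27 to 0.13, edgeR adjusted p = 0.697), and after the correction for GC content and length -0.27 (interval -0.43 to -0.12, edgeR adjusted p = 0.0833). *Per1* has the second highest GC content of the members, 59.4%. *Per2* was at 50.2, 59.2 and 53.6 CPM in WT mice 1, 2 and 3 and at 53.5, 51.2 and 52.3 CPM in Ube3am-/p+ mice 1, 2 and 3. Its 3 Ube3am-/p+ values lay inside the WT range, with a log2 fold change of -0.04 (interval -0.24 to 0.17, edgeR adjusted p = 0.845). That *Per3* differs from *Per1* or *Per2* in its response was not tested.

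The genes of the activating arm were *Clock*, *Arntl* and *Npas2*, and none passed the threshold. *Clock* stood at 78.2, 96.5 and 99.7 CPM in WT mice 1, 2 and 3 and at 83.4, 68.9 and 60.1 CPM in Ube3am-/p+ mice 1, 2 and 3. The mice numbered 1 overlapped, with the Ube3am-/p+ mouse the higher, while the mice numbered 2 and 3 lay far apart in the other direction. The log2 fold change was -0.35 (interval -0.61 to -0.10, edgeR adjusted p = 0.0963), and -0.07 (interval -0.23 to 0.09, edgeR adjusted p = 0.723) after the correction. The longest *Clock* transcript has a GC content of 40.9%, the lowest of the 10 genes.

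*Arntl* was at 34.6, 37.1 and 40.7 CPM in WT mice 1, 2 and 3 and at 42.2, 37.6 and 39.5 CPM in Ube3am-/p+ mice 1, 2 and 3. The genotypes overlapped, with the lowest value in WT mouse 1 and the highest in Ube3am-/p+ mouse 1. Its log2 fold change was 0.10 (interval -0.12 to 0.33, edgeR adjusted p = 0.579) and stayed between 0.05 and 0.16 over the 15 alternatives. *Npas2*, the relative of *Clock* found mainly in the forebrain, was at 21.1, 21.3 and 26.2 CPM in WT mice 1, 2 and 3 and at 20.5, 21.3 and 19.1 CPM in Ube3am-/p+ mice 1, 2 and 3, so that WT mouse 3 stood apart from the other 5. Its log2 fold change was -0.15 (interval -0.42 to 0.12, edgeR adjusted p = 0.493). 

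The Cryptochromes, the main repressors of CLOCK and ARNTL, were read next. *Cry2* was at 155, 132 and 132 CPM in WT mice 1, 2 and 3 and at 153, 158 and 159 CPM in Ube3am-/p+ mice 1, 2 and 3, where WT mouse 1 lay with the Ube3am-/p+ mice. Its log2 fold change was 0.18 (interval -0.01 to 0.37, edgeR adjusted p = 0.22), 0.27 without WT mouse 1 (edgeR adjusted p = 0.0335) and 0.05 after the correction for GC content and length (edgeR adjusted p = 0.792). *Cry1* was at 12.7, 13.6 and 10.8 CPM in WT mice 1, 2 and 3 and at 14.99, 9.72 and 10.8 CPM in Ube3am-/p+ mice 1, 2 and 3. Both its highest and its lowest value were in Ube3am-/p+ mice, on 79 to 133 counts a library. The log2 fold change was -0.06 with a wide interval of -0.44 to 0.33 (edgeR adjusted p = 0.871). Exons of *D930015M05Rik* cover 295 of 6320 bp of *Cry2* on the opposite strand, and the strand setting of the counting is not given in the sources used here.

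*Ciart* and *Dbp* are direct outputs of CLOCK and ARNTL, and neither passed the threshold. *Ciart* was at 7.77, 10.7 and 10.1 CPM in WT mice 1, 2 and 3 and at 6.88, 8.13 and 7.70 CPM in Ube3am-/p+ mice 1, 2 and 3. WT mouse 1 lay among the Ube3am-/p+ mice, and WT mice 2 and 3 above them. The log2 fold change was -0.31 (interval -0.71 to 0.09, edgeR adjusted p = 0.316) on 61 to 93 counts a library, and -0.42 after the correction (edgeR adjusted p = 0.304). *Dbp* was at 76.0, 54.4 and 53.3 CPM in WT mice 1, 2 and 3 and at 63.8, 64.1 and 69.6 CPM in Ube3am-/p+ mice 1, 2 and 3. WT mouse 1 was the highest of all and the other WT mice the lowest. Its log2 fold change was 0.12 (interval -0.15 to 0.39, edgeR adjusted p = 0.586), 0.31 without WT mouse 1 (edgeR adjusted p = 0.0394), and -0.17 after the correction (edgeR adjusted p = 0.361), where the direction turned. *Dbp* has the highest GC content of the 10 genes, 61.6%, and exons of *Sphk2* cover 539 of its 2993 bp on the opposite strand.

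After the correction, 8 of the 10 clock genes had the lower value in Ube3am-/p+ mice, against 49.7% of all genes, with a median of -0.15 against 0.00. *Per1*, *Per2*, *Per3*, *Dbp* and *Ciart* were 5 of those 8, with *Arntl* and *Cry2* the exceptions. At an unadjusted p below 0.05 in that fit, 3 of the 10 were lower (*Per1*, *Per3* and *Ciart*), against 6.61% of all genes. The corrected values did not overlap between the genotypes in 3 (*Npas2*, *Per1* and *Per3*), against 9.03% of all genes in the lower direction. *Per3* was the single clock gene past the adjusted threshold there.

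Phase was described within each library by dividing the counts of genes that run opposite to *Arntl* by those of *Arntl*, a ratio that does not depend on the scaling of the library. The *Dbp* to *Arntl* ratio was 2.19, 1.47 and 1.31 in WT mice 1, 2 and 3, against 1.51, 1.71 and 1.76 in Ube3am-/p+ mice 1, 2 and 3. WT mouse 1 stood above the other 5, whose genotypes overlapped, and the highest ratio was 1.68 times the lowest. The means were 1.66 ± 0.472 (SD, n = 3) in WT mice and 1.66 ± 0.129 (SD, n = 3) in Ube3am-/p+ mice. The *Per1* to *Arntl* ratio lay between 2.12 and 2.73 in WT mice, against 1.89 to 2.49 in Ube3am-/p+ mice. The ratio of *Per2* lay between 1.32 and 1.596 in WT mice, against 1.27 to 1.36 in Ube3am-/p+ mice. For *Nr1d1* it lay between 7.76 and 9.53 in WT mice, against 7.31 to 9.95 in Ube3am-/p+ mice. In these 4 ratios of counts the genotypes overlapped.

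The *Per3* to *Arntl* ratio was 1.92, 2.00 and 1.79 in WT mice 1, 2 and 3, against 1.40, 1.36 and 1.19 in Ube3am-/p+ mice 1, 2 and 3. The genotypes did not overlap, and the gap between them was wider than the spread within either. The *Ciart* to *Arntl* ratio was 0.224, 0.289 and 0.249 in WT mice 1, 2 and 3, against 0.163, 0.216 and 0.195 in Ube3am-/p+ mice 1, 2 and 3, without overlap but with a narrow gap. Of all genes tested, 26.6% had a ratio to *Arntl* that was lower in every Ube3am-/p+ mouse than in every WT mouse. Separate ranges were thus found in 2 of the 6 ratios of counts.

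With values corrected for GC content and length the ratios to *Arntl* were lower in every Ube3am-/p+ mouse than in every WT mouse in 5 of the 6, so that *Per3* did not stand alone, and the same was true of 28.8% of all genes. The corrected *Dbp* ratio was 2.16, 1.72 and 1.63 in WT mice 1, 2 and 3, against 1.51, 1.45 and 1.43 in Ube3am-/p+ mice 1, 2 and 3. For *Per1* it lay between 2.496 and 2.94 in WT mice, against 1.87 to 2.20 in Ube3am-/p+ mice, and for *Per2* between 1.42 and 1.69, against 1.256 to 1.263. The corrected *Per3* ratio was 1.88, 2.07 and 1.89 in WT mice 1, 2 and 3, against 1.38, 1.29 and 1.18 in Ube3am-/p+ mice 1, 2 and 3. For *Ciart* it lay between 0.23 and 0.315 in WT mice, against 0.17 to 0.206 in Ube3am-/p+ mice. The corrected *Nr1d1* ratio overlapped, at 8.84 to 9.44 in WT mice and 7.32 to 8.94 in Ube3am-/p+ mice. All 6 ratios share *Arntl*, whose log2 fold change was 0.15 after the correction (edgeR adjusted p = 0.479).

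Within the activating arm, the *Arntl* to *Clock* ratio was 0.443, 0.385 and 0.409 in WT mice 1, 2 and 3, against 0.505, 0.545 and 0.658 in Ube3am-/p+ mice 1, 2 and 3, also without overlap. Its corrected values were 0.431 to 0.464 in WT mice and 0.502 to 0.553 in Ube3am-/p+ mice. Turned over, this is a ratio of *Clock* to *Arntl* that was lower in every Ube3am-/p+ mouse. The same was true of 26.6% of all genes, and of 28.8% after the correction. The ratios of *Cry2* to *Cry1*, *Dbp* to *Per3* and *Per1* to *Per3* overlapped between the genotypes with and without the correction.

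**Figure D3:**
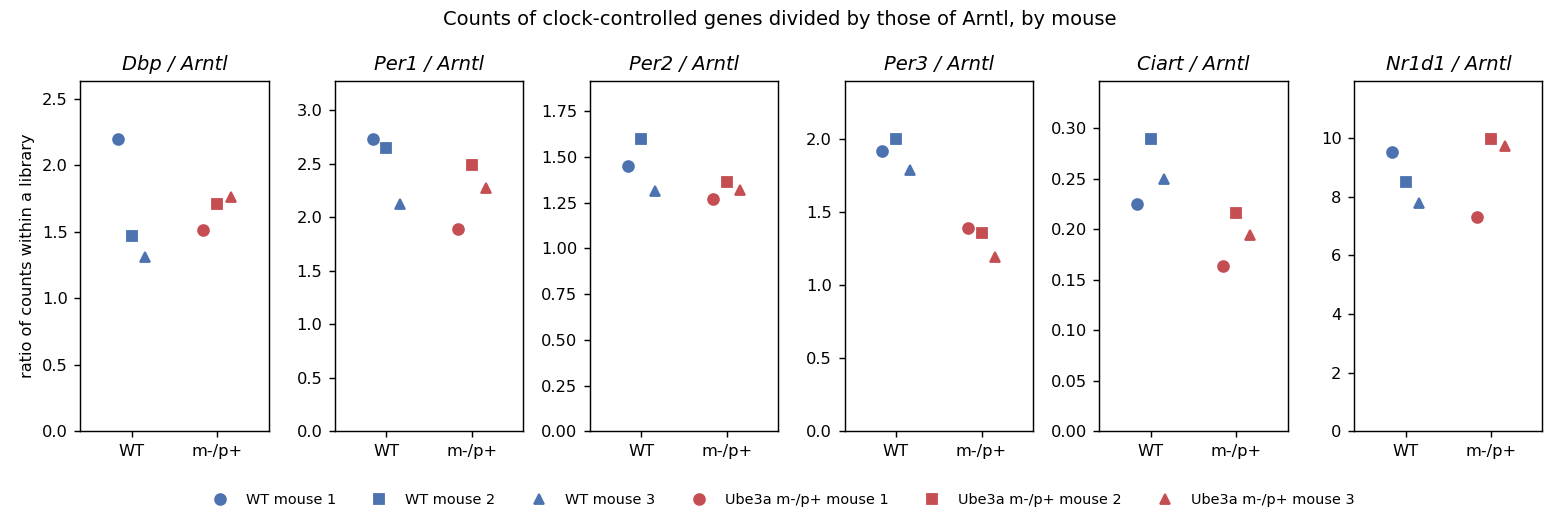
Counts of 6 genes divided by the counts of *Arntl* in the same library (linear axes from 0), 1 symbol per mouse. The *Per3* ratio is 1.79 to 2.00 in WT mice and 1.19 to 1.40 in Ube3am-/p+ mice, and WT mouse 1 has the highest *Dbp* ratio at 2.19. The ratios drawn are without the correction for GC content and length, which separates the genotypes in 5 of these 6 ratios.

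As a summary over genes, the mean deviation of log2 CPM from the mean of the 6 mice was taken for *Per1*, *Per2*, *Per3*, *Dbp* and *Ciart*. It was 0.05, 0.13 and 0.04 in WT mice 1, 2 and 3, against -0.10, -0.06 and -0.08 in Ube3am-/p+ mice 1, 2 and 3. For *Clock*, *Arntl* and *Npas2* it was -0.07, 0.07 and 0.23 in WT mice 1, 2 and 3, against 0.04, -0.09 and -0.18 in Ube3am-/p+ mice 1, 2 and 3. The arms were thus of opposite sign in WT mouse 1 and Ube3am-/p+ mouse 1 and of the same sign in the other 4 mice. These means are without the correction for GC content and length and carry no test. The first includes *Per3*, the gene called from the same counts, whose own deviations were 0.13, 0.28 and 0.26 in WT mice 1, 2 and 3. In Ube3am-/p+ mice 1, 2 and 3 they were -0.05, -0.25 and -0.36. Of the genes in that mean, *Per3* alone had values that did not overlap between the genotypes. The means therefore do not show a shift of *Per1*, *Per2*, *Dbp* and *Ciart*, and a mean without *Per3* was not taken.

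The other genes of the clock were taken from lists by role. Of 11 feedback partners, the nuclear receptors and factors that close the secondary loops, 2 fell in Ube3am-/p+ mice and 0 rose (edgeR; 5 lower and 0 higher at an unadjusted p below 0.05), beside the 0.99% and 1.02% of all genes. Their median log2 fold change was -0.19, and 9 of the 11 had the lower value. Of all 14445 genes, 7172 had the lower value, and 12.4% were lower and 12.2% higher at that unadjusted p. The 2 that fell were the retinoic acid receptor-related orphan receptors *Rora* and *Rorb*, which activate *Arntl*.

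*Rora* was at 27.0, 28.2 and 38.5 CPM in WT mice 1, 2 and 3 and at 21.5, 20.1 and 18.4 CPM in Ube3am-/p+ mice 1, 2 and 3, a log2 fold change of -0.62 ± 0.14 (SE, edgeR adjusted p = 0.0387). *Rorb* was at 29.4, 32.5 and 28.1 CPM in WT mice 1, 2 and 3 and at 19.8, 21.2 and 17.5 CPM in Ube3am-/p+ mice 1, 2 and 3, a log2 fold change of -0.60 ± 0.12 (SE, edgeR adjusted p = 0.0362). Neither overlapped between the genotypes. Both transcripts are poor in GC (40.9% and 41.6%), and after the correction the log2 fold changes were -0.33 (edgeR adjusted p = 0.186) and -0.34 (edgeR adjusted p = 0.171). Both genes are also known for high levels in thalamus. Of 6 thalamus markers 0 were called (edgeR; 1 higher at an unadjusted p below 0.05), and their summed level was 108 to 124 CPM in WT mice and 109 to 121 CPM in Ube3am-/p+ mice, with none at 0. Of the 6, 4 had the lower value in Ube3am-/p+ mice and 2 the higher. *Tcf7l2* was lower in every Ube3am-/p+ mouse (5.07 to 6.19 CPM) than in every WT mouse (6.92 to 7.54 CPM), as were 14.2% of all genes, at -0.35 (edgeR adjusted p = 0.28). The 2 with the higher value were *Prkcd* at 0.38 (edgeR adjusted p = 0.147) and *Ramp3* at 0.29 (edgeR adjusted p = 0.517). The part of thalamic tissue in the *Rora* and *Rorb* values was not tested.

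The REV-ERB genes, the repressors of *Arntl*, did not pass the threshold. *Nr1d1* was at 330, 315 and 316 CPM in WT mice 1, 2 and 3 and at 308, 374 and 384 CPM in Ube3am-/p+ mice 1, 2 and 3, with overlap, and its log2 fold change was 0.17 (interval -0.03 to 0.37, edgeR adjusted p = 0.272) and -0.01 after the correction. Exons of *Thra*, with 52234 counts in the 6 libraries, cover 263 of its 3077 bp on the opposite strand. *Nr1d2* was at 91.5, 97.3 and 102.6 CPM in WT mice 1, 2 and 3 and at 83.6, 76.2 and 69.5 CPM in Ube3am-/p+ mice 1, 2 and 3, without overlap, and its log2 fold change was -0.33 (edgeR adjusted p = 0.0632) and -0.10 after the correction (edgeR adjusted p = 0.547).

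Among the relatives and rivals of DBP at D-boxes, *Tef* was at 357 to 399 CPM in the 6 mice with a log2 fold change of -0.07 (interval -0.24 to 0.10). *Hlf* was lower in every Ube3am-/p+ mouse (128 to 154 CPM) than in every WT mouse (164 to 184 CPM), with a log2 fold change of -0.28 (edgeR adjusted p = 0.0771) and -0.13 after the correction. *Nfil3*, the repressor at D-boxes, had -0.05 (interval -0.43 to 0.32). The E-box repressors *Bhlhe40* (DEC1) and *Bhlhe41* (DEC2) had -0.19 (edgeR adjusted p = 0.192) and 0.12 (edgeR adjusted p = 0.483), and *Arntl2*, the paralogue of *Arntl*, -0.14 (edgeR adjusted p = 0.61).

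Of 11 genes for kinases, ubiquitin ligases and partners that set the life of clock proteins, 0 were called (edgeR; 1 higher and 1 lower at an unadjusted p below 0.05), with a median log2 fold change of -0.01. *Csnk1d*, the casein kinase that phosphorylates PER, had 0.24 (edgeR adjusted p = 0.137), and *Csnk1e*, its close relative, -0.01 (interval -0.19 to 0.17). *Gsk3b*, a kinase of several clock proteins, had -0.30 (edgeR adjusted p = 0.0851). *Btrc*, the ligase subunit that marks PER for degradation, had 0.04 (interval -0.13 to 0.22), and 0.30 after the correction (edgeR adjusted p = 0.0742). The median of the list moved to 0.13 with the correction, where 0 were called (edgeR). At an unadjusted p below 0.05 in that fit, 3 were lower and 1 higher, against 938 and 1130 of all 14201 genes. Leaving out Ube3am-/p+ mouse 1 called *Csnk1d* and *Gsk3b*, and leaving out WT mouse 1 called *Gsk3b* (edgeR). Those 2 fits called 1816 of 14536 and 2582 of 14646 genes in all.

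Of 6 other genes that cycle in many tissues, 1 fell and 0 rose (edgeR; 2 lower and 0 higher at an unadjusted p below 0.05), with a median log2 fold change of -0.03. Of all genes, 0.99% fell and 1.02% rose, and 12.4% and 12.2% were lower and higher at that unadjusted p. *Lonrf3*, a RING finger gene whose window holds an E-box at -45, was at 36.8, 39.9 and 38.7 CPM in WT mice 1, 2 and 3 and at 31.0, 25.2 and 24.9 CPM in Ube3am-/p+ mice 1, 2 and 3. The genotypes did not overlap, and the mice numbered 1 were again the closest. The log2 fold change was -0.49 ± 0.11 (SE, edgeR adjusted p = 0.0416) and -0.54 after the correction (edgeR adjusted p = 0.0219). *Tsc22d3* (GILZ), which glucocorticoids also induce, was at 56.1, 62.7 and 53.5 CPM in WT mice 1, 2 and 3 and at 45.0, 42.8 and 42.5 CPM in Ube3am-/p+ mice 1, 2 and 3, without overlap, at -0.39 (edgeR adjusted p = 0.0513) and -0.35 after the correction (edgeR adjusted p = 0.0642). *Wee1*, *Noct*, *Leo1* and *Tspan4* had log2 fold changes from -0.06 to 0.32 and overlapped between the genotypes.

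Over these 28 related genes together, 3 fell and 0 rose, and the count was 7 without WT mouse 1, 8 without Ube3am-/p+ mouse 1 and 0 without any one of the other 4 mice (edgeR). After the correction it was 1, *Lonrf3*. Of all genes, 0.99% fell and 1.02% rose. Those called in either direction were 2582 of 14646 without WT mouse 1 and 1816 of 14536 without Ube3am-/p+ mouse 1. Without any one of the other 4 mice, 0 to 2 of all genes were called (edgeR). After the correction 0.204% of all genes were called as lower.

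**Figure D4:**
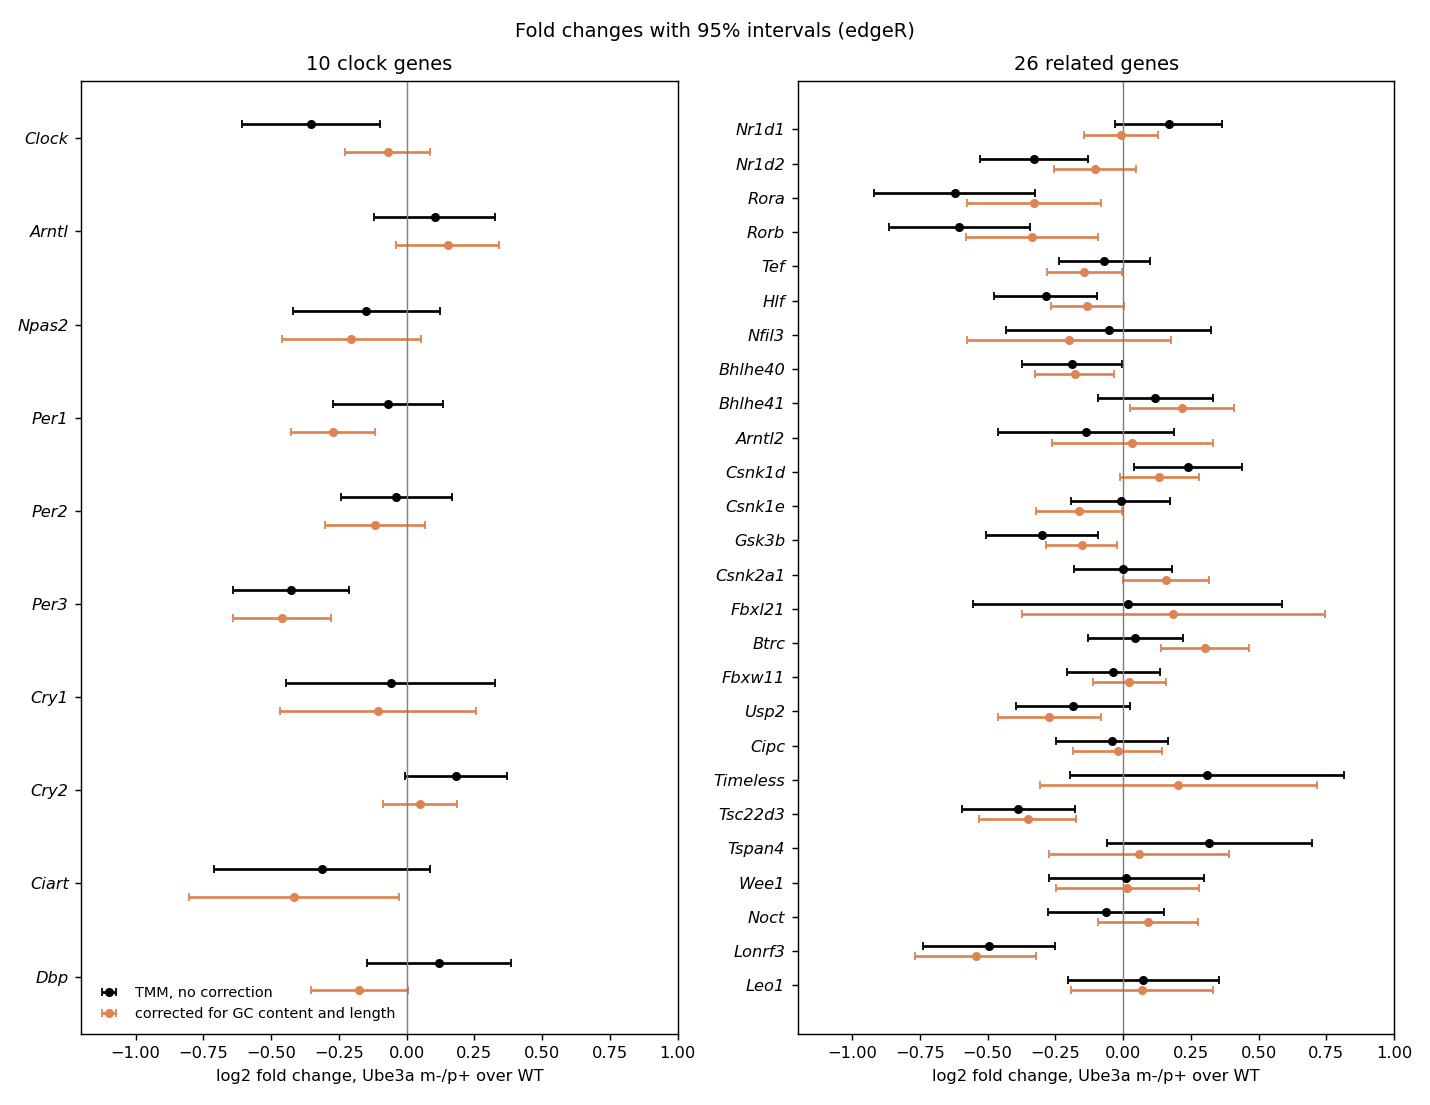
Log2 fold changes of Ube3am-/p+ over WT mice with 95% intervals (edgeR, 3 mice a genotype) for the 10 clock genes and 26 of the related genes, without (black) and with (orange) the GC and length correction. *Per3* is at -0.43 and -0.46 and *Lonrf3* at -0.49 and -0.54 without and with the correction, while *Clock* moves from -0.35 to -0.07.

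Because *Per1* answers to activity and *Per1* and *Tsc22d3* to glucocorticoids, genes of those responses were read beside them. Of 8 early genes induced by activity, 0 were called (edgeR; 2 higher and 2 lower at an unadjusted p below 0.05). *Fos* and *Ier2* were lower in every Ube3am-/p+ mouse than in every WT mouse, as were 14.2% of all genes. *Fos* was at 7.33, 6.10 and 7.98 CPM in Ube3am-/p+ mice 1, 2 and 3 and between 9.89 and 12.6 CPM in WT mice, a log2 fold change of -0.59 (edgeR adjusted p = 0.0789), and -0.68 after the correction (edgeR adjusted p = 0.082). With the correction 1 of the 8 was called, *Arc*, as lower (-0.37, edgeR adjusted p = 0.0279, against -0.16 without it). In that fit 4 were lower and 0 higher at an unadjusted p below 0.05, against 938 and 1130 of all 14201 genes. Beside the 0.99% and 1.02% of all genes that fell and rose, 1 of 8 genes induced by glucocorticoids fell and 0 rose (edgeR; 2 lower and 0 higher at an unadjusted p below 0.05, against 12.4% and 12.2% of all genes). It was the metallothionein *Mt2*, at 135, 147 and 150.3 CPM in WT mice 1, 2 and 3 and at 107, 103 and 112 CPM in Ube3am-/p+ mice 1, 2 and 3, with a log2 fold change of -0.41 (edgeR adjusted p = 0.0362), and -0.70 after the correction (edgeR adjusted p = 0.00431). *Fkbp5* and *Sgk1*, the usual markers of that response, had 0.09 (interval -0.12 to 0.30) and -0.19 (interval -0.39 to 0.01). The part of either response in the *Per3* value was not tested.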

How the data were processed

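Hippocampal RNA of 3 WT and 3 Ube3am-/p+ male mice was sequenced, with 1 library per mouse. The authors deposited raw counts per gene symbol, made with STAR 2.7.4a and HTSeq on mm10 per the submitters' processing notes; the annotation and the strand setting are not given in the sources used here. Summary lines (reads on no gene, 54.1% to 55.0% of the reads listed; ambiguous; not unique) were left out. Pairs of libraries differed by a chi-square per degree of freedom of at least 3.78, so none was a copy. That lowest value was of WT mouse 1 against Ube3am-/p+ mouse 1, and pairs within a genotype had 3.95 to 10.07. P-values measure the spread between these mice.

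CPM are counts per 1000000 counts on genes. Genes kept by filterByExpr were scaled by TMM and tested between genotypes by edgeR's quasi-likelihood test (edgeR 4.0.16, R 4.3.3, robust, two-sided, genotype only) with Benjamini-Hochberg adjustment. Exact permutation tests used log2(CPM + 0.5). The correction fitted natural splines with 5 degrees of freedom on GC content and on length, both of the longest transcript in GENCODE M21 (GRCm38), to each library's deviation, as offsets. Alternatives were DESeq2 1.42.0, other scalings, filters, thresholds and pseudocounts, the replicate number as a block and leaving out each mouse; corrected values and ratios by mouse were added after seeing the data. The steps were tested on simulated data. Genes named were *Ube3a*, the 10 members and genes of the related lists by role, from longer lists those called or without overlap, and a few chosen after their values were seen (among them *Fkbp5* and *Sgk1*). Single values of 2 related genes are not reported here. Members and lists were chosen with earlier results of these data known. Other marker lists, read without the correction, were those of striatum (1 of 7 called, higher), meninges and fibroblasts (1 of 8, higher), endothelium and pericytes (1 of 6, lower), and astrocytes, oligodendrocytes and microglia (0 of 6 each; edgeR; 2, 3 and 2 at an unadjusted p below 0.05).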

Additional observations from a re-analysis of the deposited data

How the results depend on the processing

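The direction of *Clock*, *Arntl*, *Npas2*, *Per3*, *Cry2* and *Ciart* was kept under all 15 alternatives run for each. *Dbp* turned to -0.17 with the GC and length correction and to -0.17 with the replicate block added to it, *Per1* to 0.0065 without Ube3am-/p+ mouse 1 (-0.12 to 0.0065 over the mice left out), *Per2* to 0.031 without WT mouse 2 (-0.091 to 0.031), and *Cry1* to 0.02 without WT mouse 2 and 0.078 without Ube3am-/p+ mouse 2 (-0.24 to 0.078); the cause was not tested. Differentially expressed genes numbered 290 in all, 1 among the clock genes and 3 among the related genes. They numbered 967, 1 and 6 with DESeq2, 1176, 2 and 5 with no filter on low counts, 77, 1 and 1 with the GC and length correction, and 2832, 2 and 7 with the unadjusted p. Leaving out 1 mouse gave 0 to 2582 genes in all, 0 to 4 clock genes and 0 to 8 related genes (the zeros, in edgeR, had 2075 to 2159 genes at an unadjusted p below 0.05; 2429 without Ube3am-/p+ mouse 3, where 2 genes were called). The replicate block gave 0, 0 and 0 in edgeR (2422 genes and 2 clock genes at an unadjusted p below 0.05), and with the GC and length correction 1, 0 and 0 (1591 and 3). The mice share only a number: the deviations of same-numbered mice correlated at -0.285, -0.177 and -0.311, and none of the 3 WT mice correlated best with the Ube3am-/p+ mouse of its own number. The number of clock genes at the smallest permutation p was 1, and 3 with corrected values. The number of ratios to *Arntl* without overlap was 2 of 6, and 5 with corrected values. At 61 to 133 counts a library, *Ciart* and *Cry1* have the widest intervals among the clock genes.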
